A study of Mus musculus with 4 samples.

Results

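The 10 genes described here belong to the bone morphogenetic protein (BMP) pathway that sets hepcidin in the liver. They are the Id family (Id1, Id2, Id3 and Id4), the signal transducer Smad1, the inhibitory Smad6 and Smad7, hepcidin itself (Hamp), its ligand Bmp6 and the iron sensor Tfr2. They were listed by name and matched by symbol among 37315 gene rows. All 10 were found, and all 10 passed the filter on low counts that left 14657 genes to test. The genes were chosen by their place in the pathway and selected on read counts of this same comparison, whose fold changes and calls were known, so their values are given as a description and without p-values. RNA was sequenced from liver tissue of C57BL/6 mice aged 23 weeks, with 2 libraries from wild type animals and 2 from animals with a Foxo1 mutation that the series title calls synonymous. A synonymous change alters a codon and leaves the amino acid as it was. The position of the change, the sex and feeding state of the mice, and whether each library came from a separate animal do not appear in the sources used here, so the spread between libraries, and any p-value, may be technical only.

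BMP6 made by sinusoidal endothelial cells binds BMP receptors and hemojuvelin on hepatocytes, and the receptors phosphorylate SMAD1 and its relatives. With SMAD4 these enter the nucleus and switch on Hamp, and also Id1, Smad6 and Smad7, the last of which close a negative feedback loop. Hepcidin, the peptide encoded by Hamp, makes cells degrade the iron exporter ferroportin and so lowers plasma iron, while TFR2 reports transferrin-bound iron to the same pathway. ID proteins have a helix-loop-helix but no basic region, so they bind E proteins and keep them off DNA. Id3 is also known in mice for its role in the development of the macrophages that live in the liver, the Kupffer cells.

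Sequences before a RefSeq transcription start are shown for Hamp, Id2 and Id4. The windows of these members held the GC-rich element that SMAD proteins of the BMP branch bind. Windows of 250 bases before the RefSeq transcription start (GRCm38.p6) were available for 8 of the 10 genes. The sequences run 5′ to 3′ on the strand of the gene, and stretches that GENCODE annotates as exon were left out. GENCODE places the whole Id2 stretch within the Id2 gene, and 161 of the 250 bases of its window were exon. Capitals mark GGCGCC, and in Hamp also TTCNNNGAA, the spacing that STAT factors bind.
Hamp (chr7:30944033-30944279, minus strand): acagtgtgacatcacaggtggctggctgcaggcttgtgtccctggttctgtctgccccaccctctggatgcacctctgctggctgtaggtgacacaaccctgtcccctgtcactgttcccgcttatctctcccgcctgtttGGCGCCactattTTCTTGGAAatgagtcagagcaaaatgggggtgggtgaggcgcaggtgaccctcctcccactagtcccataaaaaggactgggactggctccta
Id2 (chr12:25096254-25096342, minus strand): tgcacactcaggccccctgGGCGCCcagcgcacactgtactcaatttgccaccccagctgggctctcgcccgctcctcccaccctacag
Id4 (chr13:48260866-48261115, plus strand): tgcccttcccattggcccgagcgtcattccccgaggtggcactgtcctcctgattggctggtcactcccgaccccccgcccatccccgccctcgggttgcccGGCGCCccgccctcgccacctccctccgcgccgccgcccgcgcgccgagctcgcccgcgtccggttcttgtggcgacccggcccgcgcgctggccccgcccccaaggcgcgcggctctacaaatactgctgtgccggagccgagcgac
In Hamp the GGCGCC match lay 104 to 109 bases before the start and the TTCNNNGAA match 89 to 97 bases before it, so the elements were neighbours and did not overlap. In Id2 and Id4 the GGCGCC match lay 226 to 231 and 143 to 148 bases before the start. Both motifs read the same on either strand. Among all 32817 RefSeq windows of this length, 9.59% held GGCGCC and 7.01% held TTCNNNGAA. CANNTG, the E-box that ID proteins keep E proteins from, had 2 matches in Hamp, 2 in Bmp6 and 1 in Id2, and 66.2% of all windows held at least 1. The windows of Id3, Smad1, Smad6, Bmp6 and Tfr2 held neither GGCGCC nor TTCNNNGAA. In GENCODE all 250 bases of the Id3 and Bmp6 windows were exon within the gene, so the DNA before these genes was not searched.

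Total counts were 73551737 to 95908652 per library, and 18912 to 19578 genes had a count above 0. A floor of 3 counts stood for 0.0313 to 0.0408 CPM (counts scaled to library size), which covers counting error only. Foxo1 was at 44.0 and 54.8 normalised CPM in wild type and 33.6 and 53.4 in mutant liver, so the groups overlapped. Its level does not check the genotype, since a synonymous change need not alter it. Albumin was at 64800 to 80700 normalised CPM, and 5 of 7 markers of pancreas, gut, fat and muscle were at or below the floor of 3 counts in every library. Normalised CPM are used throughout, as mean ± SD within a group (n = 2). Every log2 fold change is that of mutant against wild type.

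Levels of the 10 genes can be set against each other only per length, as normalised CPM per kb of annotated exon. In wild type liver hepcidin was the most abundant of the 10 at 743 ± 88.5 CPM per kb, followed by Tfr2 at 73.9 ± 0.808. Id2 came next at 24.0 ± 0.807 CPM per kb, ahead of Id3 at 6.54 ± 0.300 and Smad1 at 2.15 ± 0.124. Smad7, Bmp6, Smad6 and Id1 lay at 0.932 ± 0.0887, 0.880 ± 0.0499, 0.863 ± 0.00716 and 0.842 ± 0.0741 CPM per kb, and these 4 neighbours did not differ beyond their spread. Id4 was lowest at 0.256 ± 0.0959 CPM per kb. The order of the first 5 was the same in mutant liver, where hepcidin was at 745 ± 173, Tfr2 at 75.7 ± 8.03, Id2 at 32.5 ± 0.840, Id3 at 11.3 ± 0.00995 and Smad1 at 1.85 ± 0.0139 CPM per kb.

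**Figure D1:**
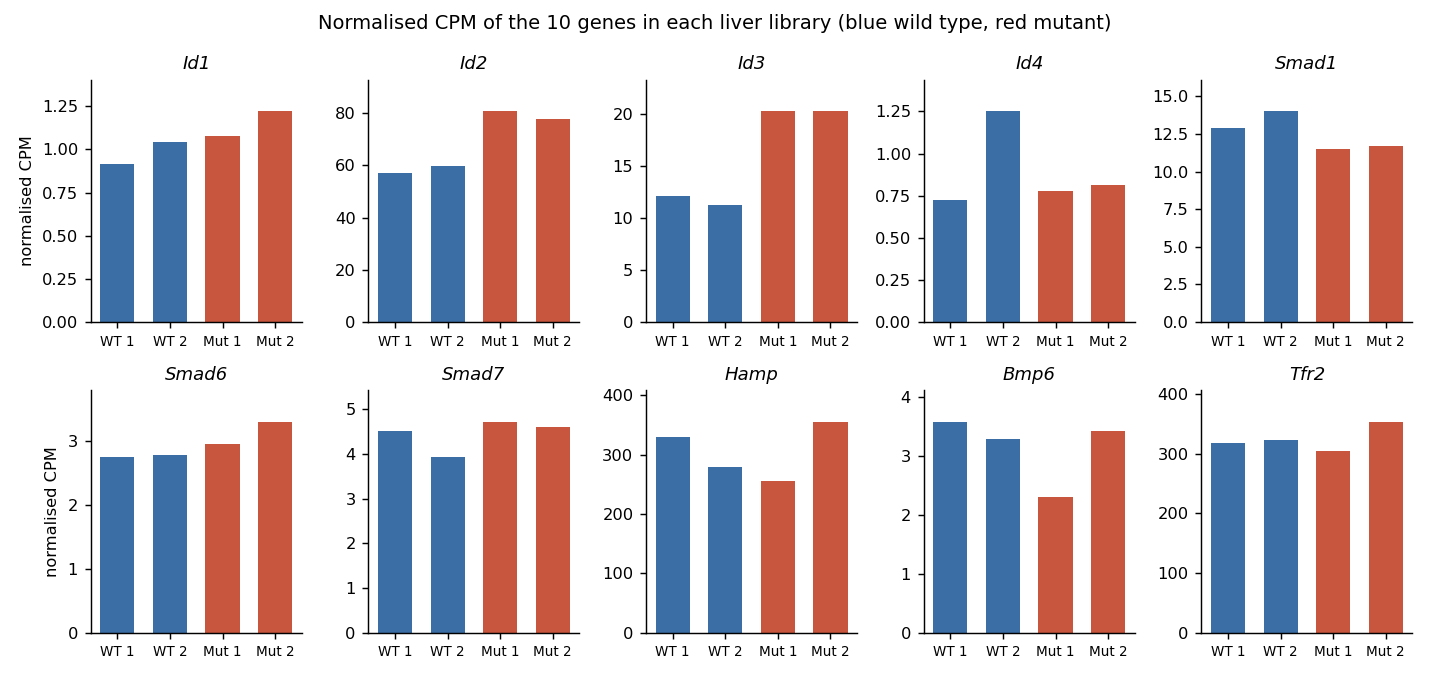
Normalised CPM (vertical axis, from 0, with its own scale in each panel) of the 10 genes in the 2 wild type (blue) and 2 mutant (red) libraries, 1 bar per library. Id2 and Id3 were higher in both mutant libraries, whereas Hamp had its lowest and its highest level within the mutant group.

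Among the 10 genes, Id3 and Id2 differed most between the groups. Id3 (ENSMUSG00000007872, mm10 chromosome 4, 136143497 to 136145755, plus strand) was at 12.1 and 11.3 normalised CPM in the wild type libraries and at 20.3 in both mutant libraries. Both mutant values were above both wild type values, and within each group the libraries lay within 1.07-fold. The fitted difference was 1.73-fold, a log2 fold change of 0.79 with an SE of 0.11 and a 95% confidence interval of 0.56 to 1.03. Id2 (ENSMUSG00000020644, mm10 chromosome 12, 25093799 to 25097140, minus strand) was at 57.1 and 59.8 CPM in the wild type libraries and at 80.6 and 77.7 CPM in the mutant libraries. Its groups did not overlap either, and the difference was 1.35-fold (log2 fold change 0.44, SE 0.09, interval 0.25 to 0.63).

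Id1, the family member that responds most directly to BMP signals in hepatocytes, was low. Per kb it lay beside Smad6, Smad7 and Bmp6, as given above. It had 76 and 75 reads in wild type and 103 and 102 reads in mutant libraries, or 0.916 and 1.04 against 1.08 and 1.22 CPM. The groups did not overlap, but the gap between wild type replicate 2 and mutant replicate 1 was smaller than the gap within either group, and the interval of its log2 fold change (0.24, SE 0.31) ran from −0.43 to 0.90. Id4 was at 0.723 and 1.25 CPM in the wild type libraries and at 0.777 and 0.813 CPM in the mutant libraries, with overlapping groups and a log2 fold change of −0.30 (SE 0.37). Wild type replicate 2 alone set its sign, since without that library the log2 fold change was 0.14. Exons of Id4 overlap those of A330033J07Rik and Gm49291 on the opposite strand, and the TruSeq RNA v2 kit named in the labels keeps no strand information.

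Per kb of exon, Id2 made up 75.2% and 76.5% of the summed Id family level in wild type replicates 1 and 2, and 72.6% and 71.7% in the mutant ones. Id3 made up 21.7% and 19.7% in wild type and 24.9% and 25.5% in mutant libraries, so its share was higher in both of the latter. The summed level of the family was 31.1 and 32.1 CPM per kb in wild type and 45.5 and 44.5 CPM per kb in mutant liver. Id1 and Id4 together added little to it, with shares of 2.05% to 2.79% and 0.444% to 1.01% per library.

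Of the 10 genes, Id3 alone was past the threshold of the test over all genes (quasi-likelihood test of edgeR with Benjamini-Hochberg adjustment, adjusted p below 0.05), where 0.341% of the 14657 genes tested were past it, 0.280% with mutant liver higher and 0.0614% with mutant liver lower. Nothing is read from that count, or from the calls of Id3 and Id2 given next, because the list was made with this comparison known. With any 1 of the 4 libraries left out, the log2 fold change of Id3 stayed between 0.75 and 0.84. A group then held 1 library, too few to weigh a call. Id3 missed the threshold with limma-voom, which put 0.0478% of all genes past it, and with edgeR without robust estimation. Its log2 fold change was 0.79 in both. Id2 was past the threshold with DESeq2, with no filter on low counts and with the replicate number as a block, and was not past it in the other settings tried. DESeq2 put 109 of 12268 genes past it, the test with no filter 258 of 23104 and the block 111 of 14657. The groups did not overlap for 5 of the 10 genes with mutant liver higher and for 1 with mutant liver lower, against 17.0% and 17.0% of all genes tested and 34.1% in either direction. The median log2 fold change of the 10 genes was 0.09, and that of all genes tested −0.001.

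**Figure D2:**
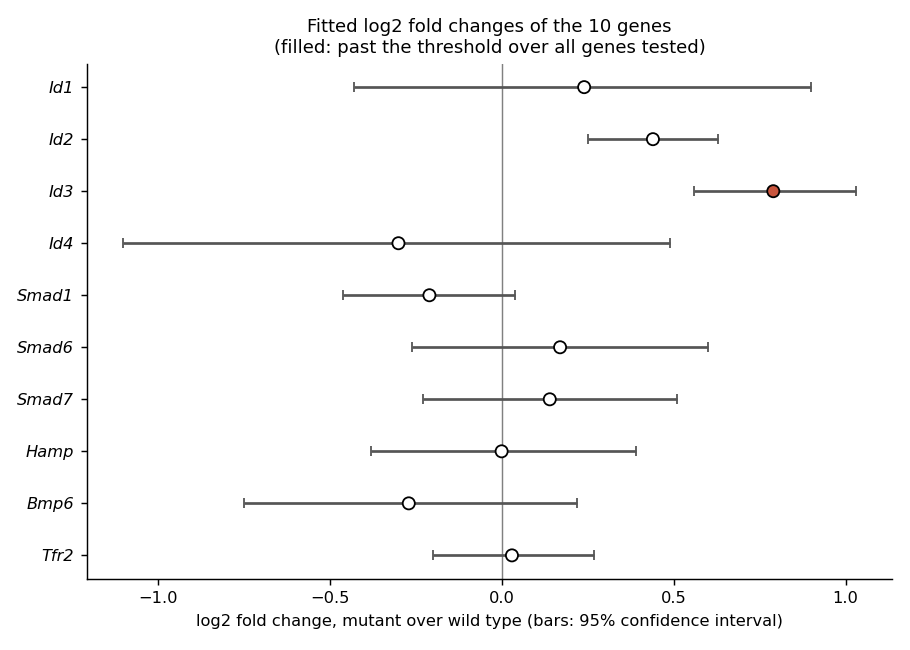
Fitted log2 fold change of mutant over wild type (horizontal axis) for the 10 genes, with 95% confidence intervals from the fit over all genes as bars. The filled point, Id3 at 0.79, was past the threshold over all genes. The genes were listed with this comparison known, so the intervals describe the fit and are not read as tests.

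Kupffer cell markers were higher in the same libraries as Id3 and Id2. The leukocyte and blood lists described below were also higher there by their medians. Of 10 markers, 10 had both mutant libraries above both wild type libraries, against 17.0% of all genes tested, and 5 rose past the threshold, against 0.280% of all genes tested. This and the other cell type lists were made with earlier results of these data known, so their counts and p-values are a description. The median log2 fold change of the 10 markers was 0.66. Summed over the list, they stood at 293 and 309 CPM in the wild type libraries against 448 and 510 CPM in the mutant ones, 1.59-fold higher in the mean. Lyz2, which encodes lysozyme, rose from 50.6 ± 1.17 to 86.0 ± 6.26 CPM (edgeR adjusted p = 0.00509), and the macrophage growth factor receptor Csf1r from 40.2 ± 0.526 to 63.6 ± 3.71 CPM (edgeR adjusted p = 0.0109). Exons of Csf1r overlap those of Hmgxb3 on the opposite strand. The defining markers Clec4f, Timd4 and Cd5l, present in every library, were the other 3 past the threshold, with log2 fold changes of 0.53, 0.85 and 0.74. Clec4f and Timd4 are named after their values were seen. With any 1 library left out, a group held 1 library, too few to weigh a call. The log2 fold changes then ran from 0.69 to 0.84 for Lyz2, from 0.60 to 0.72 for Csf1r and from 0.57 to 0.89 for Cd5l. In bulk tissue, more cells of a type and more RNA per cell cannot be told apart.

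Set against the summed Kupffer cell markers of its own library, Id3 stood at 4.13% and 3.67% in wild type and at 4.53% and 3.98% in mutant liver, so on this ratio the groups overlapped. Id2 stood at 19.5% and 19.4% in wild type and at 18.0% and 15.2% in mutant liver, where it was lower in both. The part of the Kupffer cell markers in the levels of Id2 and Id3 was not tested. The leukocyte marker Ptprc rose as well (6.30 ± 0.353 to 10.8 ± 0.883 CPM, edgeR adjusted p = 0.0405), and so did the beta globin Hbb-bt (9.14 ± 0.615 to 15.9 ± 0.483 CPM, edgeR adjusted p = 0.0145), whose reads may be split with near-identical globin genes. With any 1 library left out, a group held 1 library, too few to weigh a call. The log2 fold changes then ran from 0.69 to 0.85 for Ptprc and from 0.73 to 0.87 for Hbb-bt. Their lists of 7 and 5 tested genes had medians of 0.77 and 0.45. The leukocyte list summed to 7.98 and 8.61 CPM in the wild type libraries and to 14.3 and 12.7 CPM in the mutant ones. In it 6 genes lay above 0 and 1 below 0 on the log2 scale, so the rise was not particular to Kupffer cell markers. Markers of sinusoidal endothelial cells, which make BMP6, summed to 230 and 242 CPM in the wild type libraries and to 240 and 236 CPM in the mutant ones. In that list 0 of 10 were past the threshold in edgeR and 0 had an unadjusted p below 0.05. Hepatocyte, stellate cell and cholangiocyte markers had medians of −0.04, −0.07 and −0.04, with 0 genes past the threshold and 0 at an unadjusted p below 0.05 in each list.

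**Figure D3:**
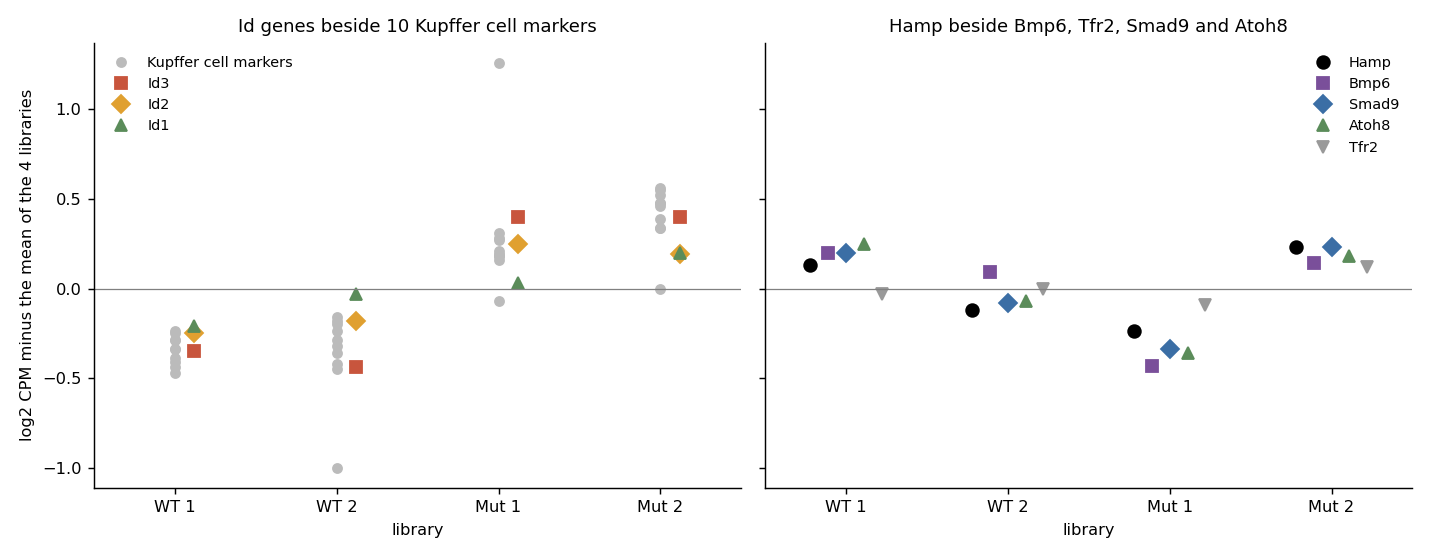
Log2 normalised CPM minus the mean of the 4 libraries (vertical axis) in each library (horizontal axis), for Id1, Id2 and Id3 beside 10 Kupffer cell markers on the left and for Hamp, Bmp6, Smad9, Atoh8 and Tfr2 on the right. The genes on the left split by group, with Id3 at −0.35 and −0.44 in wild type and 0.40 in both mutant libraries. All 5 genes on the right were lowest in mutant replicate 1. Smad9 and Atoh8 were picked after their values were seen, as pathway genes near Hamp, which favours this. The BMP targets Id1, Smad6 and Smad7 were not lowest in that library.

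The SMAD genes differed little. Smad1, the receptor-activated transducer, was at 12.9 and 14.0 CPM in the wild type libraries and at 11.5 and 11.7 CPM in the mutant libraries. Both mutant values were below both wild type values, with a log2 fold change of −0.21 (SE 0.12) and an interval of −0.46 to 0.04. The inhibitory Smad6 was at 2.75 and 2.78 CPM in the wild type libraries and at 2.94 and 3.29 CPM in the mutant libraries. Smad7, the other inhibitory SMAD, was at 4.50 and 3.93 CPM in the wild type libraries and at 4.71 and 4.59 CPM in the mutant libraries. Neither of the inhibitors overlapped between groups, yet their log2 fold changes of 0.17 (SE 0.20) and 0.14 (SE 0.17) were smaller than their SE. With 1 library left out they ranged from 0.09 to 0.25 for Smad6 and from 0.05 to 0.24 for Smad7, and that of Smad1 from −0.27 to −0.15.

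Hepcidin differed between libraries of 1 group more than between the groups. Hamp (ENSMUSG00000050440, mm10 chromosome 7, 30942368 to 30944032, minus strand) was at 330 and 279 CPM in the wild type libraries and at 255 and 355 CPM in the mutant libraries. The mutant libraries were the lowest and the highest of the 4, 1.39-fold apart, and the group means were 305 ± 36.3 and 305 ± 70.9 CPM. The log2 fold change was 0.00 with an SE of 0.17 and an interval of −0.38 to 0.39. Its sign depended on the library left out, from −0.26 without mutant replicate 2 to 0.22 without mutant replicate 1.

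Bmp6, like Hamp, was lowest in mutant replicate 1. It was at 3.57 and 3.29 CPM in the wild type libraries and at 2.30 and 3.42 CPM in the mutant libraries, so that mutant replicate 1 was low and mutant replicate 2 lay among the wild type values. The log2 fold change of −0.27 (SE 0.22) was −0.01 without mutant replicate 1 and −0.58 without mutant replicate 2. Exons of Bmp6 overlap those of Txndc5 on the opposite strand. Tfr2, which senses transferrin-bound iron, was at 318 and 323 CPM in the wild type libraries and at 304 and 353 CPM in the mutant libraries, with overlapping groups and a log2 fold change of 0.03 (SE 0.11, interval −0.20 to 0.27). The sign of Tfr2 turned without mutant replicate 2, to −0.08.

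Hamp has a close copy, Hamp2, on the same chromosome. Their transcripts aligned over 410 bases with 94.6% identity, and the longest identical run was 87 bases, shorter than the reads of 150 bases. The sources used here do not say how reads with several placements were counted, so the split between them is uncertain. Hamp2 was at 8.32 and 13.6 CPM in the wild type libraries and at 6.71 and 5.95 CPM in the mutant libraries, with 498 to 984 reads per library. It was lower in both mutant libraries (log2 fold change −0.79, SE 0.23) and missed the threshold in edgeR (adjusted p = 0.460), whereas DESeq2 put it past the threshold (adjusted p = 0.0443). Its counts were 2.52% and 4.88% of those of Hamp in wild type and 2.63% and 1.67% in mutant liver. Exons of Hamp2 overlap those of Gm44662 on the opposite strand.

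Beyond the 10 genes, 99 genes of the pathway in 7 lists were examined, and 93 of them were tested. In edgeR 0 of the 93 were past the threshold, and 10 (10.8%) had an unadjusted p below 0.05, where 6.19% of all genes tested did. These lists too were made with earlier results of these data known, so nothing is read from that share. DESeq2 called 2, Fst and Hamp2, where it called 0.888% of the genes it tested, and limma-voom called 0. Their median log2 fold change was 0.05. Genes named below with an unadjusted p below 0.05 other than Eng, and Hamp2, Tcf3, Tcf4, Erfe and Il6, were picked after their values were seen. Exons of Foxo1, Inhbc, Smurf2, Chrd, Erfe, Bhlhe40, Cebpa and Jak1 overlap those of other annotated genes. How reads in these stretches were counted is not given in the sources used here.

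Among the BMP and activin ligands, 0 of 14 were past the threshold in edgeR, 5 lay above 0 and 9 below 0 on the log2 scale, and the median was −0.05. The activin subunit Inhbc was at 54.1 ± 6.71 CPM in wild type liver and at 55.7 ± 0.530 CPM in mutant liver, Gdf2 (BMP9) at 16.0 ± 0.634 and 15.9 ± 1.22 CPM, and the activin subunit Inhbe at 13.6 ± 4.59 and 16.5 ± 4.01 CPM. Tgfb1, the ligand of the other SMAD branch, was at 4.70 ± 0.563 and 6.66 ± 0.0945 CPM (0.50 on the log2 scale with an SE of 0.16, edgeR adjusted p = 0.435). Among the receptors and the hemojuvelin complex, 0 of 14 tested genes were past the threshold, with 7 positive, 7 negative and a median of 0.01. Tmprss6, the protease that cleaves hemojuvelin, was at 391 ± 0.288 and 366 ± 6.85 CPM, and hemojuvelin (Hjv) at 80.8 ± 17.0 and 83.5 ± 3.33 CPM. The endothelial co-receptor endoglin (Eng) was at 55.2 ± 0.451 and 47.8 ± 0.131 CPM (−0.21 on the log2 scale with an SE of 0.09, edgeR adjusted p = 0.710), and its exons overlap those of Fpgs on the opposite strand. Tgfbr1 was at 18.6 ± 1.05 and 22.5 ± 2.31 CPM, a log2 fold change of 0.27.

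Among SMADs and their regulators 0 of 13 were past the threshold in edgeR, and 10 were positive, with a median of 0.05. The phosphatase Ppm1a was at 76.3 ± 2.92 and 77.5 ± 1.25 CPM, the ubiquitin ligase Smurf2 at 42.9 ± 4.40 and 44.5 ± 2.17 CPM, and the receptor-binding Fkbp1a at 33.3 ± 2.38 and 35.8 ± 0.703 CPM. Skil, a SMAD co-repressor and itself a target of TGF beta signals, was at 11.8 ± 0.715 and 17.6 ± 3.33 CPM (0.58 on the log2 scale with an SE of 0.14, edgeR adjusted p = 0.181). Among secreted antagonists 0 of 9 tested genes were past the threshold. Twsg1 was at 39.3 ± 0.982 and 42.5 ± 0.484 CPM and Chrd at 6.03 ± 0.288 and 5.25 ± 0.685 CPM. Follistatin (Fst), which traps activins, was at 2.75 and 3.70 CPM in the wild type libraries and at 5.03 and 7.53 CPM in the mutant libraries. Both mutant values lay above both wild type values, with a log2 fold change of 0.96 (SE 0.23) and an edgeR adjusted p of 0.188. The DESeq2 adjusted p of Fst was 0.0211. Its exons overlap those of Gm47040 on the opposite strand. Nog and Sostdc1 were at or below the floor of 3 counts in every library. The erythroid hormone erythroferrone (Erfe), which restrains BMP6, had 3 and 9 reads in wild type and 3 and 0 in mutant libraries and was not tested.

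Of the basic helix-loop-helix genes, which include the E proteins that ID proteins bind, 0 of 11 were past the threshold in edgeR and 0 had an unadjusted p below 0.05, with a median of 0.20. The E protein Tcf12 was at 21.4 ± 1.29 and 20.0 ± 0.880 CPM, Tcf4 at 12.4 ± 0.0191 and 12.8 ± 0.867 CPM, and Tcf3 at 10.5 ± 0.0211 and 10.3 ± 2.98 CPM. Bhlhe40, a repressor linked to the clock, was at 41.2 ± 11.9 and 47.5 ± 4.06 CPM and Hes6 at 32.6 ± 0.485 and 35.8 ± 7.24 CPM. In the iron list 0 of 20 were past the threshold in edgeR, with a median of 0.03. The ferritin chains Ftl1 and Fth1 were at 1700 ± 132 and 1070 ± 30.9 CPM in wild type liver, and at 1660 ± 54.7 and 1040 ± 32.0 CPM in mutant liver, and the ferroxidase ceruloplasmin (Cp) at 1560 ± 12.5 and 1700 ± 29.0 CPM. Exons of Ftl1 overlap Gm10252 on the opposite strand and Gm22133 on the same strand, and those of Cp overlap Hps3 on the opposite strand. Ferroportin (Slc40a1), which macrophages also express, was at 114 and 108 CPM in the wild type libraries and at 126 and 144 CPM in the mutant libraries (0.28 on the log2 scale with an SE of 0.10, edgeR adjusted p = 0.555).

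Inflammatory signals reach Hamp through STAT3, whose element is marked in the sequence above. In that list 0 of 12 tested genes were past the threshold in edgeR, 11 were positive, 3 had an unadjusted p below 0.05 and the median was 0.16. Of all genes tested, 6.19% had an unadjusted edgeR p below 0.05, and the median log2 fold change was −0.001. This list was made with earlier results of these data known, so nothing is read from its counts. The hepatic factors Creb3l3 and Cebpa were at 201 ± 27.0 and 162 ± 4.52 CPM in wild type liver, and at 196 ± 6.01 and 181 ± 2.1 CPM in mutant liver, and the kinase Jak1 at 114 ± 0.303 and 118 ± 1.78 CPM. Socs3, the feedback inhibitor that STAT3 induces, was at 3.27 and 2.17 CPM in the wild type libraries and at 5.30 and 4.71 CPM in the mutant libraries (0.88 on the log2 scale with an SE of 0.21, edgeR adjusted p = 0.181). Il1b, a cytokine of myeloid cells, was at 0.506 and 0.360 CPM in the wild type libraries and at 1.23 and 1.36 CPM in the mutant libraries (1.57 on the log2 scale with an SE of 0.36, edgeR adjusted p = 0.144). Its exons overlap those of Il1bos on the opposite strand. The receptor subunit Il22ra1 was at 4.70 ± 0.00191 and 7.10 ± 1.34 CPM, a log2 fold change of 0.59 and an edgeR adjusted p of 0.320. These 3 genes were higher in both mutant libraries, as were the Kupffer cell markers and 17.0% of all genes tested. The summed levels of those markers were 448 and 510 CPM against 293 and 309. Between the mutant libraries, Socs3 and that sum ranked in opposite order. The part of Kupffer cells in these genes was not tested. Il6 had 10 and 5 reads in wild type and 0 and 0 in mutant libraries, where a count of 0 allows up to 0.0313 and 0.0359 CPM.

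**Figure D4:**
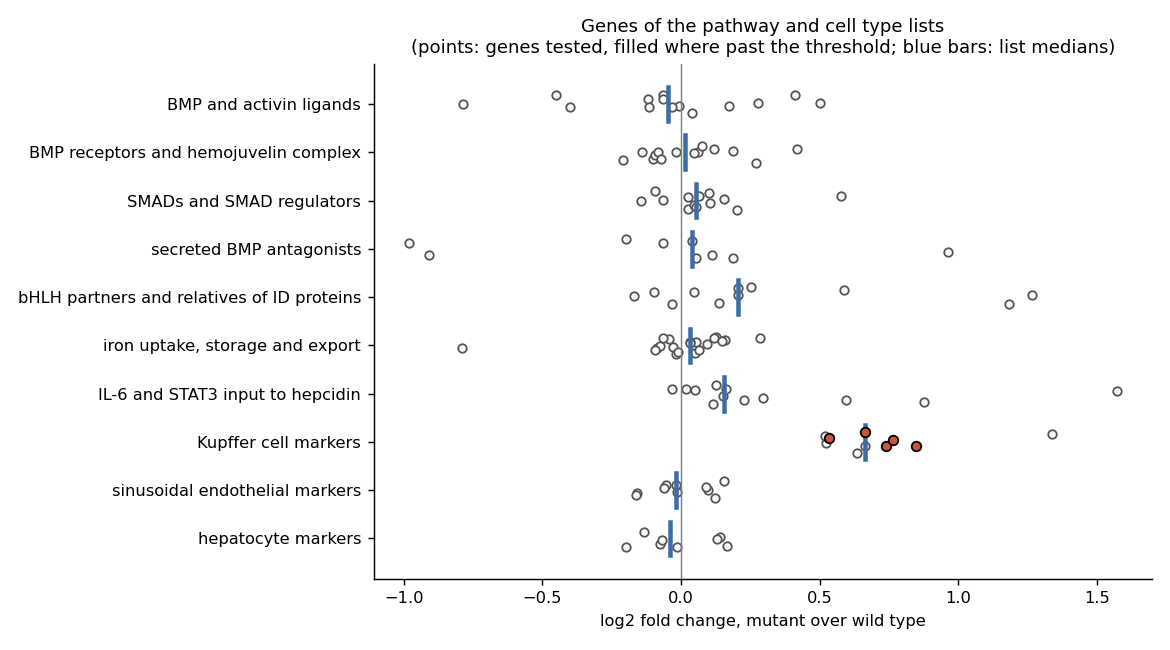
Log2 fold change of mutant over wild type (horizontal axis) for every tested gene of the 7 pathway lists and of 3 cell type lists, 1 point per gene, with blue bars at the list medians. The filled points, past the threshold over all genes, were 5 Kupffer cell markers, and the medians of the other lists lay between −0.05 and 0.20.

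Genes with the closest course over the 4 libraries were found by the root mean square difference of centred log2 CPM among 10130 genes (10131 for Id1) of at least moderate expression. Over so few libraries many genes come close by coincidence, and the measure is a description. Among the genes nearest to Hamp were Cebpe, Pigl, Zbtb2 and Zfp747, with differences of 0.0107 to 0.0190 on the log2 scale, and 322 genes lay within 0.1. Of the pathway list genes, picked after their values were seen, the nearest was Slc25a28, a mitochondrial iron importer, at 0.025 from Hamp, with 6 of all candidate genes nearer. Smad9 and Atoh8, known as BMP-responsive genes, lay at 0.0628 and 0.0931, with 59 and 241 nearer. Smad9 was at 10.5 and 8.66 CPM in the wild type libraries and at 7.23 and 10.8 CPM in the mutant libraries. Atoh8 was at 21.1 and 16.9 CPM in the wild type libraries and at 13.8 and 20.0 CPM in the mutant libraries. Mutant replicate 1 was lowest for both, as for Hamp, but they were picked for lying near Hamp, which favours this. By contrast, the BMP targets Id1 and Smad6 were lowest in wild type replicate 1, and Smad7 in wild type replicate 2.

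Nearest to Id1 were Ssx2ip, Arl8a, Itih4, Cntrob and Wfdc21, with differences of 0.00414 to 0.0183, and 690 genes lay within 0.1. The low count of Id1 limits this comparison. Nearest to Id3, a search added after the values were seen, were Myo1f, Hbb-bt, Itgal, Lilra5 and Dock10, with differences of 0.0194 to 0.0611. Only 25 genes lay within 0.1 of Id3, and Id2 lay at 0.188, with 113 genes nearer. Myo1f, a myosin of leukocytes, was at 2.12 and 1.94 CPM in the wild type libraries and at 3.60 and 3.55 CPM in the mutant libraries, and the integrin Itgal, also of leukocytes, at 8.81 and 8.39 CPM in the wild type libraries and at 14.0 and 14.2 CPM in the mutant libraries.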

How the data were processed

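The authors deposited a table of raw counts for each library, with an Ensembl gene and its reads on each line. Libraries were made with the Illumina TruSeq RNA Sample Prep Kit v2, which keeps no strand information, from about 100 ng of mRNA and read in pairs of 150 bp, per the labels' protocols. Reads were processed with TopHat2 2.1.1 and HTSeq 0.6.0 on mm10, per the submitters' processing notes, and the annotation release, counting mode and strand setting were not given in the sources used here. Symbols were found for 35449 of 37315 gene rows (95.0%), and positions, exon lengths and overlaps come from GENCODE M21 (GRCm38, the build of mm10). Hemojuvelin is listed there under an older symbol.

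The test was that of edgeR 4.0.16 under R 4.3.3 (filterByExpr with a minimum count of 10, TMM factors of 0.983 to 1.02, glmQLFit and glmQLFTest with robust estimation, group as the only term), with Benjamini-Hochberg adjustment over 14657 genes and a threshold of 0.05. The SE of a log2 fold change is its size divided by the square root of F. As alternatives, DESeq2 1.42.0 and limma-voom (limma 3.58.1) were run, and edgeR with RLE or upper-quartile scaling, without the filter, with a filter of 1 CPM in 2 libraries, without robust estimation, with a replicate block and with each library left out. The 10 genes and all lists were chosen with earlier results of these data known. Named genes were the 10, Foxo1, from each pathway list those past the threshold (up to 4) and the 3 of highest mean CPM, and from each cell type list up to 2 past the threshold and the 1 of highest mean CPM; others are marked as picked after their values were seen. Some genes that this rule names are not reported here. For likeness, log2 CPM used an offset of 0.5 counts, and candidates had an average log2 CPM of at least 1.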

Additional observations from a re-analysis of the deposited data

How the results depend on the processing

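The number of genes past the threshold over all genes was 50, and 50 with RLE and with upper-quartile scaling. It was 258 of 23104 genes tested with no filter and 24 of 11559 with a filter of 1 CPM in 2 libraries. With DESeq2 it was 109 of 12268. Of 14657 genes tested, it was 7 with limma-voom, 8 without robust estimation and 111 with the replicate number as a block. With 1 library left out it ranged from 3 to 17, and 0 to 7 of the 50 genes passed again. Of the 10 genes, 2 were past it with no filter, with DESeq2 and with the replicate block, 0 with limma-voom and without robust estimation, and 0 to 0 with any library left out. Of the pathway list genes, 6 were past it with no filter, 2 with DESeq2 and 3 with the block. Of the Kupffer cell markers, 9 were past it with no filter, 3 with the 1 CPM filter, 8 with DESeq2, 1 with limma-voom, 1 without robust estimation, 9 with the block and 0 with any library left out. Replicate numbers are not stated to pair the libraries, and the differences between replicates 1 and 2 correlated at −0.00636 between the groups, so the block has no basis in the design. The log2 fold change of Hamp was −0.01 with limma-voom and with the block. With 1 library left out, signs turned for Id4 (−0.65 to 0.14), Hamp (−0.26 to 0.22), Tfr2 (−0.08 to 0.14), Foxo1 (−0.56 to 0.11), Inhbc (−0.08 to 0.17), Gdf2 (−0.09 to 0.06), Inhbe (−0.03 to 0.67), Hjv (−0.15 to 0.28), Ppm1a (−0.01 to 0.06), Smurf2 (−0.05 to 0.16), Bhlhe40 (−0.06 to 0.53), Hes6 (−0.09 to 0.33), Ftl1 (−0.11 to 0.05), Creb3l3 (−0.16 to 0.11), the stellate cell marker Dcn (−0.10 to 0.16), the bile duct marker Tm4sf4 (−0.000579 to 0.04) and the erythroid Alas2 (−0.03 to 0.17). The cause of these shifts was not tested. Of 119 recomputed values of the 10 genes, 104 kept their direction and their side of the threshold. With 2 libraries a group, Id1 and Id4, at about 1 CPM, are known least precisely.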
